A study of Mus musculus with 9 samples.

Results

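Fibroblastic reticular cells (FRCs) of lymph nodes that drained an injection of PBS were profiled on 3 Illumina bead arrays, and the genes abundant in these baseline cells are described here. A gene was counted as expressed when 1 of its probes had a detection p under 0.01 on all 3 arrays, the detection p being the scanner software's comparison of a probe with negative control beads. Of 19057 genes named on the array, 5716 met this rule. The series holds 9 arrays in 3 groups of 3, and the other 6, from nodes that drained a tumour, are not compared here. The PBS group came from female C57BL/6 mice, with the FRCs of 2 brachial nodes pooled for each animal, so that each array stands for 1 animal. No transgene or reporter is given for these mice, and the sources used here do not describe how the cells were isolated.

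FRCs are the fibroblasts that build the reticular scaffold of a lymph node. They wrap the collagen fibres of the conduit system, guide T cells and dendritic cells into the T zone with the chemokines CCL19 and CCL21, and supply lymphocytes with survival factors such as IL-7. Related stromal cells of the B cell follicle make CXCL13, and others surround the medullary sinuses and the vessels.

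Genes were ordered by the mean log2 signal of their brightest detected probe after background correction and quantile normalization, and a percentile of 100 is the brightest of the 5716 genes. The order is one of bead signal, since probes differ in affinity, and is not an order of RNA molecules. In such bulk samples more cells of a type and more RNA per cell cannot be told apart. Values are given below in the order of PBS replicates 1, 2 and 3, on the log2 scale. Counts of detected members are to be read beside the 30.0% of all named genes that met the detection rule. That share was higher for genes with more probes.

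The 6 genes that mark FRCs were all detected on all 3 arrays, against 30.0% of the genes named on the array, and their median percentile was 97.5. By its brightest probe, none of the 6 was below the detection limit on any array. Highest was Ccl21a, a CCR7 ligand that recruits naive T cells and dendritic cells, with signals of 12.63, 12.38 and 12.17. It ranked 14 of 5716 with a mean of 12.39 ± 0.23 (SD, n = 3). Near-identical copies of this chemokine gene exist in mice, so its probe may also read them, and the probe annotated to the copy Ccl21c gave 12.01, 11.62 and 11.54. Ccl19, the other CCR7 ligand, had signals of 12.26, 11.91 and 11.56 and ranked 42. Both T zone chemokines were highest on replicate 1 and lowest on replicate 3. Cxcl13, the ligand of CXCR5 that draws B cells into follicles, went the other way, with 11.41 on replicate 1 against 12.11 and 12.02 on replicates 2 and 3, and ranked 45.

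The structural and receptor markers lay lower in the order. Pdgfra, a receptor of platelet-derived growth factors carried by most fibroblasts, had signals of 10.95, 10.64 and 10.52 and ranked 238. This rested on 1 probe, and its other probe was detected on no array, with a mean of 5.01. Col1a1, the gene of the alpha 1 chain of type I collagen, had 10.42, 10.58 and 10.19 and ranked 348. Pdpn, the gene of podoplanin, which binds CLEC-2 on dendritic cells and platelets, had 9.53, 9.60 and 9.90 and ranked 744. Each of the 6 markers thus lay in the upper part of the order on every array, with no array at background.

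**Figure D1:**
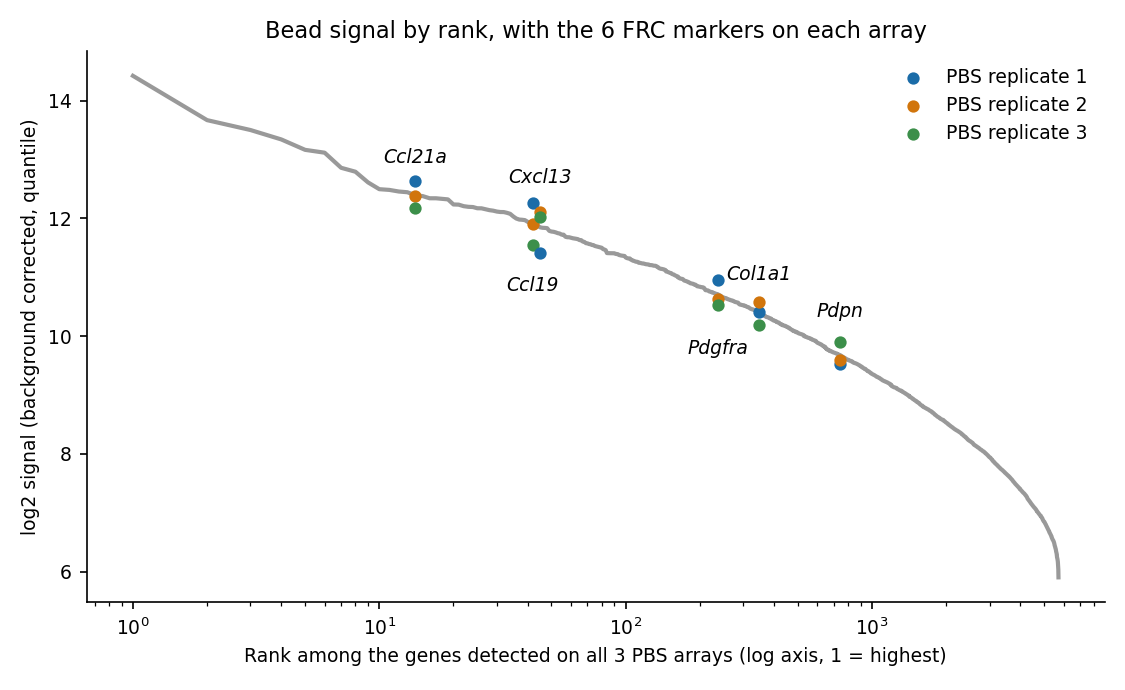
Mean log2 signal (y axis) against rank on a log axis (x axis) for the 5716 genes detected on all 3 PBS arrays (grey line), with the 6 FRC markers as points, 1 colour for each array. Ccl21a, Ccl19 and Cxcl13 lie within the first 45 ranks, and Pdpn is the lowest of the 6 at rank 744.

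Promoters of 3 markers and 3 other abundant genes are shown for their CpG number, which was counted over all promoters. The stretches below are the 120 bases before the annotated start in RefSeq's GRCm38.p6 annotation, 5′ to 3′ on the gene's strand, with each CpG dinucleotide in capitals. Ccl19 (chr4:42756366-42756485, minus strand), Ccl21a (chr4:42773992-42774111, minus strand) and Cxcl13 (chr5:95956819-95956938, plus strand) are FRC markers. Rpl23 (chr11:97782440-97782559, minus strand) and Rps12 (chr10:23787210-23787329, minus strand) encode ribosomal proteins, and Klf6 (chr13:5861369-5861488, plus strand) encodes an early response transcription factor.
Ccl19: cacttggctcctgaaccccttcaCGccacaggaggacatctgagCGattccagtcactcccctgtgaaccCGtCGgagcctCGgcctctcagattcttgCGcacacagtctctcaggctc
Ccl21a: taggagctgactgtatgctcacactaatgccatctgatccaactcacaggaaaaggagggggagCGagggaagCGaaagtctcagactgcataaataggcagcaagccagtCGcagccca
Cxcl13: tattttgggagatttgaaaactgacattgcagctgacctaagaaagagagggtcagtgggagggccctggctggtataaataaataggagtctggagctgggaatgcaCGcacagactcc
Rpl23: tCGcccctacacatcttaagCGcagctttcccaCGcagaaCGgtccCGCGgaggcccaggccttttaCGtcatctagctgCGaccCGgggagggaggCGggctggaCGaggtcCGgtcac
Rps12: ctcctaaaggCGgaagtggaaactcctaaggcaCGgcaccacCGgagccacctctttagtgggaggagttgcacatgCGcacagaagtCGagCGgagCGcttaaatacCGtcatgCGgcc
Klf6: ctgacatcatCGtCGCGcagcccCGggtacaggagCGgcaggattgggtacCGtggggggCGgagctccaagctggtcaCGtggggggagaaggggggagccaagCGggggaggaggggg

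In these stretches Cxcl13 held 1 CpG, Ccl21a held 3 and Ccl19 held 6, against 9 in Rps12, 9 in Klf6 and 12 in Rpl23. Over the whole window of the reference table, from 250 bases before to 50 bases after the start, the counts were 3 for Cxcl13, 5 for Ccl21a and for Pdgfra, 7 for Pdpn and 10 for Ccl19. Col1a1 had no entry among the promoters used here. A promoter was found for 4608 of the 5716 genes, and their median was 21.5 CpG against 15 over 15207 genes of the array. Fewer than 10 CpG were counted in 4 of the 5 markers and in all 5 small proteoglycan genes with a promoter, as in 644 of the 4608 detected genes and in 37.4% of those over the array. In contrast, 1 of 43 detected ribosomal protein genes and 1 of 21 immediate early genes had fewer than 10. A start of C followed by 4 pyrimidines, read on the gene's strand at the annotated first base, was present in 7 of the 43 ribosomal protein genes and in 2.73% of the array's promoters. CpG number and start letters are descriptions of the annotated windows, and their part in the signal was not tested.

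**Figure D2:**
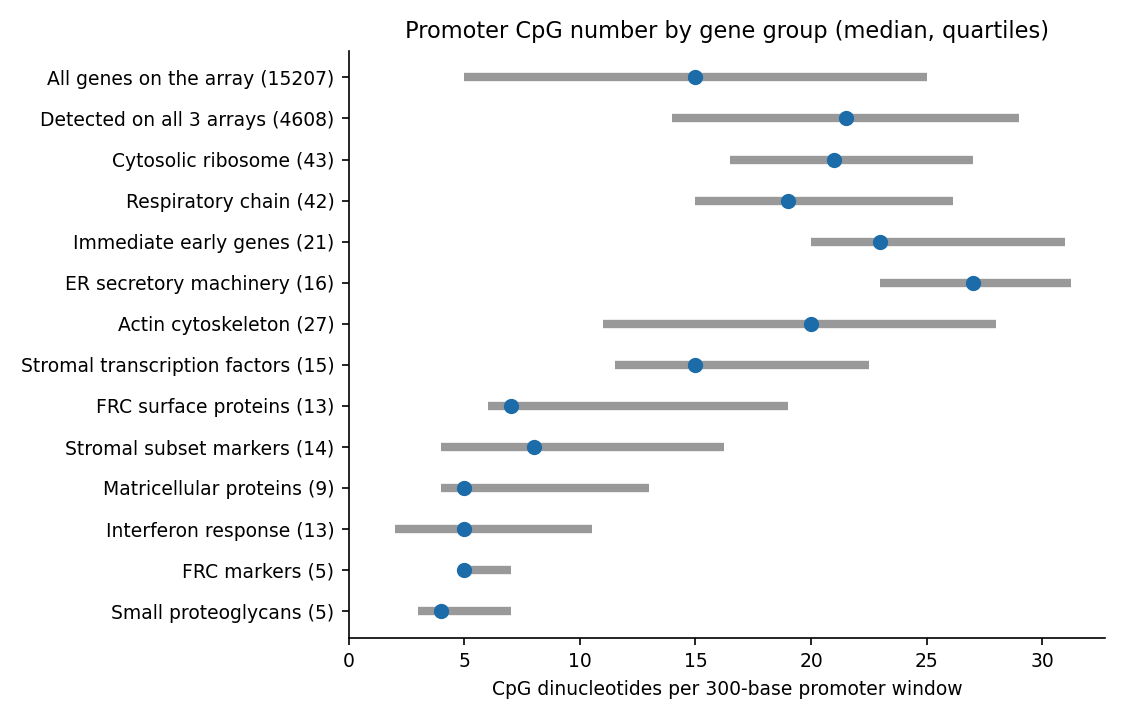
Number of CpG dinucleotides in the promoter window of the reference table (x axis) for all genes of the array, the detected genes and 12 gene groups (y axis, with the number of genes that had a promoter). Points are medians and bars run from the lower to the upper quartile. The FRC markers have a median of 5 and the small proteoglycans of 4, against 21 for the cytosolic ribosome.

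Several chemokines were among the 100 highest genes, while others were not detected. Of 9 homeostatic chemokines on the array 7 were detected (77.8%, against 30.0% of all genes), with a median percentile of 99.1. Of these, 5 were among the 100 highest genes, a count that holds both Ccl21a and its copy Ccl21c, whose probes may read the same RNA. Cxcl12, the CXCR4 ligand that holds many leukocytes in stromal niches, had signals of 11.83, 11.70 and 11.76 and ranked 52. Cxcl16, a membrane-bound chemokine, ranked 557, Ccl27a ranked 3333, Cx3cl1 was detected on 2 arrays and Cxcl14 on none. Inflammatory chemokines were also detected in the RNA of these FRC samples, 10 of 15 (66.7%), with a median percentile of 92.2. Cxcl1, a neutrophil attractant, was the fourth highest gene of all and took ranks 4, 3 and 4 on the 3 arrays. Its signal of 13.34 was the same on each array to 2 decimals, and equal log2 values at equal probe ranks arise by construction of quantile normalization. Before normalization its raw intensities were 10043, 10257 and 11076. Ccl7 followed with 11.78, 11.25 and 11.61, and Ccl11, the eotaxin that attracts eosinophils, with 11.43, 11.13 and 10.73. Lowest of the detected were Ccl9 at rank 2000 and Ccl4 at rank 4458. Ccl3, Ccl8, Ccl20, Ccl22 and Cxcl11 were detected on no array, as were 47.6% of the array's genes.

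Factors that keep lymphocytes and myeloid cells alive had intermediate signals. Of 18 on the array 10 were detected (55.6%, against 30.0% of all genes), with a median percentile of 72.2. Igf1 had 10.84, 10.25 and 10.51, Il6 had 10.57, 9.91 and 10.30, and Il33, an alarmin stored in stromal nuclei, had 9.43, 9.92 and 9.29. Il7, the T cell survival cytokine, gave 9.46, 8.65 and 8.59 and ranked 1505. Tnfsf13b, which encodes the B cell survival factor BAFF, gave 9.52, 8.77 and 7.99, and was highest on replicate 1 like Il7. Il15, Tslp, Il34 and Dll4 were detected on 2 arrays and Flt3l on 1. Csf2, Csf3 and Dll1 were detected on none.

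Genes used to tell stromal subsets apart covered several lymph node niches in the same RNA. Of 20 such genes 15 were detected, with a median percentile of 79.9. Mfge8, a bridging protein for apoptotic cells and a marker of follicular dendritic cells, had signals of 13.12, 13.21 and 13.17 and ranked 5. Its 2 probes were both detected on all arrays, the second with a mean of 12.36. Further genes of follicular dendritic cells that B cells share, Cr2 and Fcer2a, ranked 1239 and 1313. Inmt, a methyltransferase, ranked 122 with 11.57, 11.14 and 10.95. Des, the muscle and pericyte intermediate filament desmin, ranked 251 with 10.77, 10.41 and 10.78. Pi16, a marker of adventitial fibroblasts, differed between arrays, with 8.61 on replicate 1 and 11.16 and 10.76 on the others. Wnt2 was detected on 1 array, and Bmp2 and Ackr3 on none.

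Of 24 surface proteins used to sort or follow FRCs 18 were detected, with a median percentile of 79.8. Besides Pdgfra the highest were Vcam1, the ligand of VLA-4 integrin, with 10.38, 10.35 and 10.54, and Cd248, the stromal sialomucin endosialin, with 10.09, 10.70 and 10.43. Several genes that FRCs are known for were not detected on all arrays. Ltbr, the lymphotoxin beta receptor needed for FRC maturation, was detected on replicate 1 alone with 7.65 against 5.38 and 5.27. Pdgfrb passed on replicate 2 alone, with 6.40 against 5.64 and 5.45. Lepr passed on 1 array, Madcam1, a marker of marginal reticular cells, on 1, and Itga7 on none. A gene below the detection limit of its probe may still be transcribed, and no level is given for it.

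Several groups of extracellular matrix genes were detected more often than the 30.0% of all genes. Among 14 collagen chains 11 were detected (78.6%), with a median percentile of 90.9. Col3a1, the chain of reticular fibres, was highest with 11.58, 11.63 and 11.52, ahead of Col1a2 with 10.72, 11.01 and 10.90 and Col6a1 with 10.50, 10.90 and 10.47. The 3 arrays lay within 0.5 log2 units of each other for each of these chains. Of 17 basement membrane genes 13 were detected, led by Sparc, a collagen-binding glycoprotein, at rank 58, Col4a1 at rank 329 and Hspg2, the gene of perlecan, at rank 380. Col4a3 and Col4a4 were detected on no array. Of 9 small leucine-rich proteoglycans 7 were detected, and Dcn and Bgn, which encode decorin and biglycan, ranked 25 and 29. Dcn had signals of 12.14, 12.36 and 12.02 and Bgn 12.13, 12.20 and 12.07. The others were far lower, with Ogn at rank 732, Lum at 833, Prelp at 1542, Fmod at 3461 and Aspn at 4471, while Omd was detected on 2 arrays and Podn on 1.

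Of 25 matrix enzymes and inhibitors 20 were detected, with a median percentile of 86.3. They were led by Serpinf1, which encodes the serpin PEDF, at rank 93, Serping1, the C1 inhibitor, at rank 99 and Timp2, an inhibitor of metalloproteinases, at rank 158. Elastic fibre genes had 9 of 13 detected and a median percentile of 48.4, with Fbln1 highest at rank 290 and Fbln5 and Ltbp2 on no array. Of 15 complement genes 8 were detected, with a median percentile of 92.1. C4b, whose probe may also read its close copy C4a, had signals of 11.78, 11.50 and 11.66, Cfb had 10.48, 10.56 and 10.54, and the 3 C1q chains were detected on no array. Of the IGF axis 7 of 9 were detected, with a median percentile of 94.9. Highest were Igfbp3 at rank 35 with signals of 12.42, 11.84 and 11.84, Igfbp7 at rank 118 and Igfbp5 at rank 163.

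Immediate early genes, which many stimuli switch on within minutes without new protein synthesis, formed 1 of the brightest groups. Of 26 on the array 24 were detected (92.3%, against 30.0% of all genes), with a median percentile of 96.0. Of these, 8 were among the 100 highest genes. Egr1, a zinc finger transcription factor, had 12.91, 12.82 and 12.86 and ranked 7. Dusp1, a phosphatase that turns off MAP kinases, had 12.38, 12.31 and 12.31 and ranked 18. Zfp36, which speeds the decay of cytokine mRNAs, had 11.95, 11.70 and 11.71 and ranked 49. Signals of Fos were 11.50, 11.49 and 11.25, at rank 84. For Egr1, Dusp1 and Fos the 3 arrays lay close together. Junb lay at the foot of the group with rank 5199, and Klf2 and Ier2 were detected on 2 arrays. Heat shock genes were all detected, 11 of 11, with a median percentile of 90.4. Hspa8, a constitutive chaperone, had 12.11, 12.01 and 11.88, Dnajb1, its inducible partner, had 11.89, 11.85 and 11.58, and Hsp90aa1 had 11.28, 11.12 and 10.67. The inducible Hspa1a and Hspa1b, a near-identical pair, ranked 449 and 762.

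**Figure D3:**
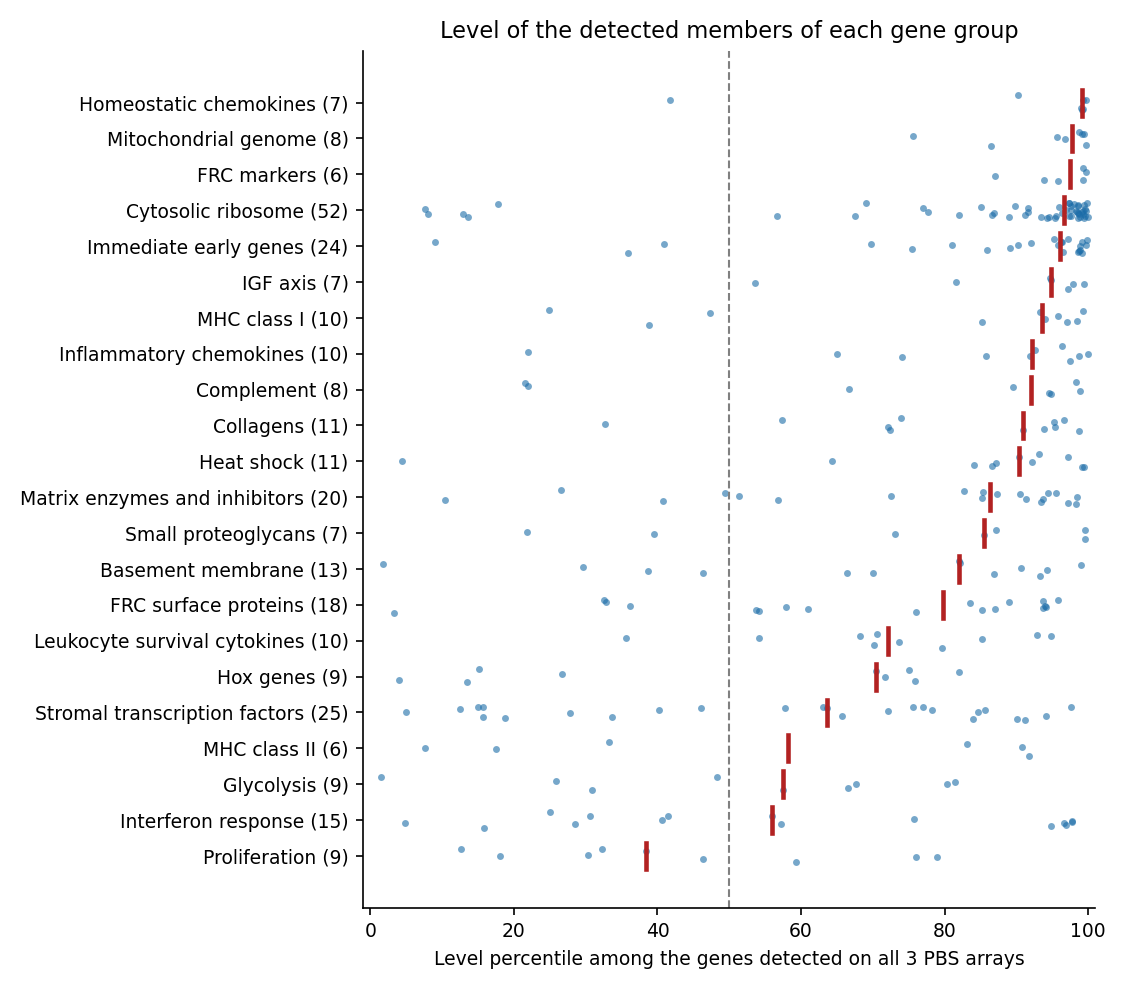
Level percentile (x axis) of the members of 22 gene groups (y axis, number of detected members in brackets). Each point is a gene, the red bar is the group's median and the dashed line marks the middle of the 5716 detected genes. Homeostatic chemokines have a median of 99.1 and the proliferation genes one of 38.5, and single members of most groups lie far from their median.

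Antigen presentation and interferon genes were uneven. Of 12 MHC class I pathway genes 10 were detected (83.3%, against 30.0% of all genes), with a median percentile of 93.6. B2m, the light chain of class I molecules, had 12.04, 11.85 and 11.85, Tapbp, the peptide-loading chaperone tapasin, had 11.46, 11.20 and 11.56, and H2-D1 had 11.06, 10.98 and 10.90. H2-T23 ranked 242, H2-K1 343, the immunoproteasome subunits Psmb10 387, Psmb9 847 and Psmb8 4294, H2-Q7 3012 and the peptide transporter chain Tap2 3494. H2-M3 and Tap1 were detected on 1 array. Of 10 class II genes 6 were detected, with a median percentile of 58.2 that was 22.4 without replicate 3. Cd74, the invariant chain, had 10.07, 10.22 and 10.02, H2-Ab1 had 9.62, 10.35 and 10.03, and H2-Aa had 9.47, 9.37 and 9.37. H2-Eb1, H2-Ob and H2-Oa ranked 3815, 4717 and 5282. The transactivator Ciita, H2-DMa and H2-DMb1 were detected on 2 arrays and H2-Ea on none. Interferon response genes split in level, with 15 of 22 detected and a median percentile of 56.0. Ifitm1 and Ifitm3, membrane proteins that restrict virus entry, ranked 125 and 126, and Ifi27 ranked 178, but Isg15 ranked 4811 and Mx1, Irf7 and Ifi35 were detected on no array.

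Genes of protein synthesis supplied much of the top of the order. Of 56 cytosolic ribosomal protein genes 52 were detected, with a median percentile of 96.7, and 18 were among the 100 highest. Rpl23 ranked first on every array, with a log2 signal of 14.42 and raw intensities of 20391, 22580 and 23140. Rps29 followed at rank 9 with 12.46, 12.91 and 12.46, and Rpl27a at rank 16 with 12.28, 12.54 and 12.21, both highest on replicate 2. Ribosomal protein genes have many processed pseudogenes that a probe may also read. All 8 genes of the mitochondrial genome that are named on the array were detected, with a median percentile of 97.8, and ND4, a subunit of complex I, had 12.30, 12.58 and 12.26. COX2, a subunit of cytochrome c oxidase, ranked 31, CYTB 46, ATP6 75, ND1 182, ND5 250, ND6 770 and ND4L 1392. Of nuclear respiratory chain genes 51 of 58 were detected at a median percentile of 74.7, led by Cox6c with 11.30, 11.17 and 11.12. Glycolysis genes had 9 of 11 detected and a median percentile of 57.4, with Ldha highest at rank 1058, Aldoa next at 1122 and Gapdh at 3954. Proliferation genes were the lowest of the intracellular groups, with 9 of 28 detected, a share of 32.1% close to the 30.0% of all genes, and a median percentile of 38.5. Mcm6, of the replicative helicase, was highest at rank 1200, and Top2a, Ccna2 and Aurkb were detected on no array.

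Other general functions lay between these groups. Translation factors had 16 of 17 detected and a median percentile of 95.1, led by Eif4a2, an RNA helicase, at rank 28 and Eef1a1, the elongation factor that delivers tRNAs, at rank 33. Secretory pathway genes had 21 of 24 detected (87.5%, against 30.0% of all genes) at 79.7. Highest of them was Hspa5, the chaperone BiP, with 11.48, 11.19 and 11.34. Actin cytoskeleton genes had 28 of 32 detected at 83.6, led by Actb with 12.20, 12.13 and 12.19, and iron and redox genes had 21 of 25 at 87.7, led by Fth1. Matricellular proteins had 12 of 17 detected at 83.3, with Ccn1 at rank 331, while Ccn3, Ccn5 and Smoc2 were on no array. Proteasome subunits had 10 of 14 detected at 68.0, led by Psma2. Of 14 lymphotoxin and NF-kB pathway genes 10 were detected at 55.3, led by Nfkbia, the inhibitor of NF-kB, with 11.57, 11.38 and 11.75. The labelled sex was also checked, and Xist, transcribed from the silent X chromosome of females, had 10.81, 10.15 and 10.39, while the Y-linked Eif2s3y, Uty and Kdm5d were detected on no array.

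Among 39 transcription factors linked to stromal cells 25 were detected, with a median percentile of 63.6. Nfib, a nuclear factor I family member, had 11.14, 11.15 and 11.13 and was among the 10 abundant genes with the smallest spread. Its next probe had a mean of 9.33. Nfix had 10.30, 10.59 and 10.44 on 1 probe, and its other probes had means of at most 6.34. Zeb2 had 10.07, 9.81 and 10.30. Nkx2-3, Tlx1 and Tcf21 were detected on no array. Of 38 Hox genes, whose products carry positional identity along the body axis, 9 were detected, a share of 23.7% beside 30.0% of all genes, with a median percentile of 70.5 that was 42.9 without replicate 3. The highest was Hoxc6 with 10.23, 8.88 and 8.88, followed by Hoxa7 with 8.75, 8.88 and 9.41 and Hoxd9 with 8.73, 8.96 and 9.22. Hoxa13, Hoxb13, Hoxc13 and Hoxd13, which pattern the hindmost body, were detected on no array. Of 38 growth factor and cytokine receptors 25 were detected. Ifngr2, a chain of the interferon gamma receptor, ranked 17 with 12.22, 12.17 and 12.63, but this rested on 1 probe, and its other probes had a mean of at most 6.67. Lpar1, a lysophosphatidic acid receptor, ranked 197 with 10.80, 10.90 and 10.84. Of 16 genes by which FRCs can restrain T cells 6 were detected (37.5%), at a median percentile of 58.4 that was 38.9 without replicate 1. Highest were Lgals1, the galectin-1 gene, at 10.31, 10.78 and 10.50, and Ptgs2, the gene of cyclooxygenase 2, at 9.65, 9.46 and 10.09. Nos2, Arg1 and Ido1 were detected on no array.

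Markers of other cells that a lymph node preparation could hold were examined in 15 lists with 165 members on the array. Of these members 47, or 28.5%, were detected on all 3 arrays, beside 30.0% of all genes named on the array, and 73, or 44.2%, on none, beside 47.6%. Taken over all lists, these markers were thus detected about as often as any gene. Pan-leukocyte genes had 5 of 8 detected (62.5%). Their summed signal was 3803 to 4368 over the 3 arrays. Such sums are given for each list to show the spread between arrays, and are not compared between lists, whose probes and sizes differ. Laptm5, a lysosomal protein of blood cells, had 10.98, 11.15 and 10.83, whereas Ptprc, the gene of CD45, had 7.54, 7.40 and 7.14 at rank 4075. Srgn, Coro1a and Cd53 ranked 834, 1686 and 1762, and Cd52, Rac2 and Lcp1 were detected on 2 arrays. Myeloid genes had 8 of 20 detected (40%) and a summed signal of 4964 to 5968. Highest was Aif1, a macrophage cytoskeletal protein, with 9.66, 10.41 and 10.41. The lysozyme genes Lyz1 and Lyz2, a close pair whose probes may read both, had 9.37, 10.40 and 9.89, and 9.91, 9.75 and 9.38, and all 3 probes of Lyz2 were detected on all arrays. Tyrobp, S100a9, Ctss and Fcer1g were also detected on all arrays, Csf1r, the receptor of macrophage growth factor, on 2, and Itgam, Cd14 and the C1q chains on none. T cell genes had 4 of 12 detected (33.3%) and a summed signal of 753 to 961, with Cd3e at 7.23, 7.38 and 7.34. Cd3d, Cd8b1 and Il7r were the others detected, and Cd4, Cd5, Cd28 and Themis were on no array. B cell genes had 3 of 8 detected (37.5%) and a summed signal of 1022 to 1292, with Cd79b at 6.83, 7.09 and 8.26, Cd72 at rank 3063 and Ms4a1, Pax5 and Blk on no array. Ebf1, counted in that list, is also a stromal transcription factor. Plasma cell genes had 2 of 8 detected (25%), Xbp1 and Jchain, and a summed signal of 492 to 670, with Sdc1, Mzb1 and Ighg1 on no array. NK cell genes had 1 of 8 detected (12.5%), Prf1, and a summed signal of 1861 to 2700.

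Of 19 blood endothelial markers 3 were detected (15.8%, against 30.0% of all genes), Plvap, Eng and Pecam1, and Cdh5, Kdr and Emcn were on no array. The summed signal of that list was 858 and 741 on replicates 1 and 2 and 2182 on replicate 3, where Glycam1, a mucin of high endothelial venules, reached 10.17 against 5.99 and 6.83. Of 13 lymphatic endothelial markers 3 were detected (23.1%), namely Ccl21a itself, Mmrn1 at rank 891 and Nrp2 at rank 3193, and Prox1, Lyve1 and Flt4 were on no array. The summed signal of the lymphatic list was 6490 to 7294 and includes Ccl21a. Mural cell genes had 8 of 15 detected (53.3%) and a summed signal of 7110 to 8208. Rgs5, a pericyte regulator of G protein signalling, had 10.57, 10.55 and 10.65, and Des and Acta2 belong to FRCs as well, while Cnn1 was on no array.

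Adipocyte genes had 5 of 11 detected, a share of 45.5% that was above the 30.0% of all genes. They were led by Lpl, a lipase that fibroblasts also make, at rank 69, followed by Cd36, Fabp4, Scd1 and Pparg, with Adipoq, Plin1 and Lep on no array and a summed signal of 4222 to 4480. Epithelial and muscle genes had 0 of 9 and 0 of 10 detected, with summed signals of 158 to 309 and 134 to 478. Erythroid and platelet genes had 3 of 10 detected (30.0%), the globins Hbb-bs and Hbb-bt and the platelet gene Gp9, at 704 to 1125. Schwann and neural genes had 1 of 8 (12.5%) at 577 to 715, the broadly expressed Pmp22. Melanocyte genes had 1 of 6 (16.7%), Mitf, at 778, 1069 and 2325 on replicates 1, 2 and 3, and Tyr, Tyrp1, Dct and Mlana were on no array. The part of other cells in the levels of the stromal genes was not tested.

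**Figure D4:**
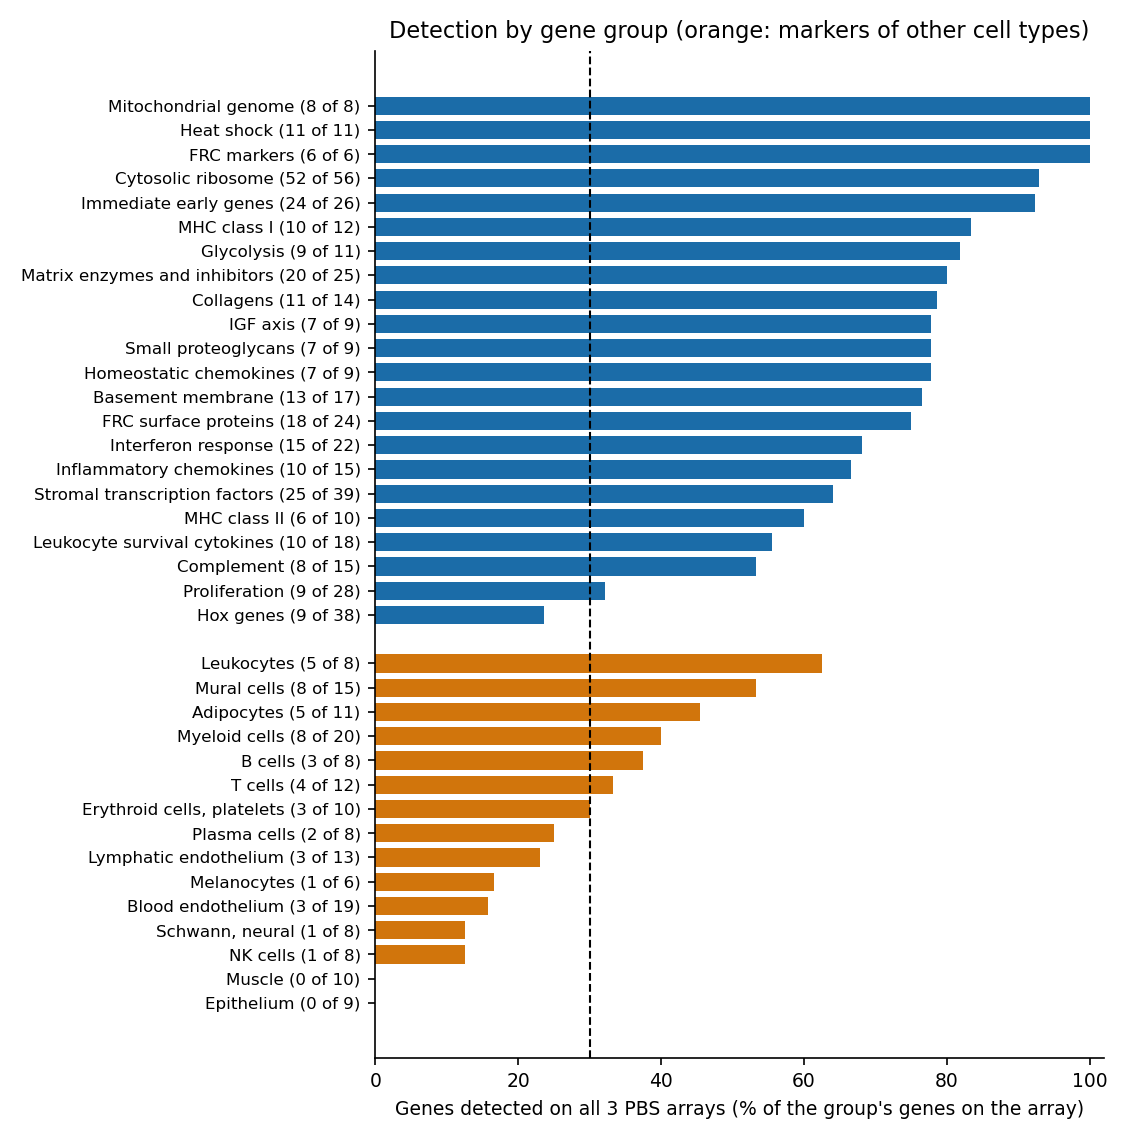
Share of each gene group's members on the array that were detected on all 3 PBS arrays (x axis, percent), with the counts in brackets (y axis). Blue bars are groups of stromal or general function, orange bars are markers of other cell types, and the dashed line marks the 30.0% of all named genes. The groups at 100% are the FRC markers, heat shock and the mitochondrial genome, and no epithelial or muscle gene is detected on all arrays.

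**Figure D5:**
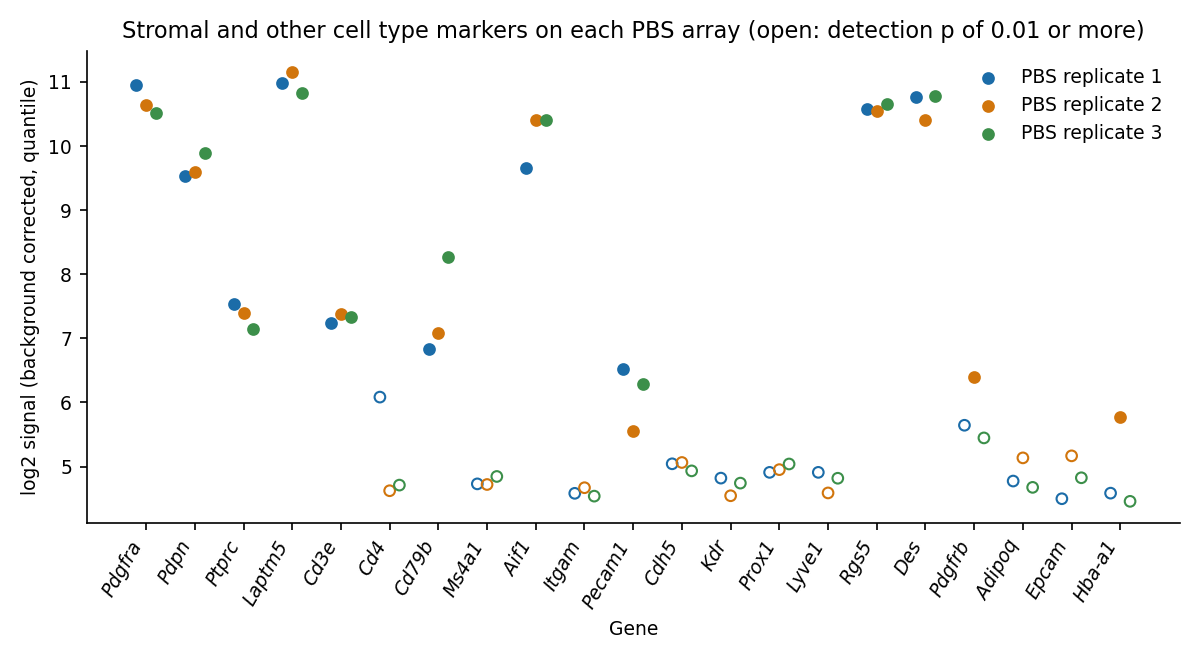
Log2 signal (y axis) on each PBS array (colours) of 21 marker genes (x axis), with open circles where the detection p was 0.01 or more. Pdgfra, Pdpn, Rgs5 and Des are detected on every array, with means of 10.70 for Pdgfra and 9.67 for Pdpn. The leukocyte gene Laptm5 and the myeloid gene Aif1 are also detected on every array, with means of 10.99 and 10.16. Ptprc and Cd3e are detected at lower signal, and Cdh5, Kdr, Prox1 and Lyve1 are open on every array.

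The arrays differed in how many probes they detected. Of 45281 probes, 11529, 16489 and 15346 were detected at a detection p under 0.01. Across all probes the rank correlation of raw intensities was 0.738 between replicates 1 and 2, 0.736 between 1 and 3, and 0.811 between 2 and 3, values that also reflect the probe sequences all arrays share. Replicate 1 therefore stood apart with the fewest detected probes. Without it, 7309 genes were detected on both remaining arrays, or 38.4% of all, and all 5716 genes are among them by construction. The median percentile on replicates 2 and 3 was 97.7 for the FRC markers, 96.5 for immediate early genes, 97.3 for ribosomal protein genes and 90.8 for small proteoglycans. Glycolysis genes reached 67.9 there and MHC class II genes 50.3.

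The level of a detected gene ranged from 5.90 to 14.42 with a median of 8.03. The 10 highest genes held 3.67%, 3.68% and 3.87% of the summed linear signal of the detected genes, and the 500 highest held 38.9%, 39.2% and 39.6%. Between the arrays the median SD of a gene was 0.40 log2 units, and it was 0.18 among the 571 highest and 0.46 among the 571 lowest genes. An SD above 1 was found for 273 genes, or 4.78%. Among genes above the median level the largest spread was that of Ints5, a subunit of the Integrator complex. Its brightest probe had 9.75 and 9.61 on replicates 1 and 2 and 5.90 on replicate 3. The second Ints5 probe gave 4.98, 7.15 and 6.03, lowest on replicate 1, so the spread is that of 1 probe. Nfkbid, an atypical inhibitor of NF-kB, had 9.92, 6.63 and 8.66. Taldo1, of the pentose phosphate pathway, had 6.39, 8.70 and 9.45, and Irs1, an insulin receptor substrate, had 6.75, 8.92 and 9.82, both lowest on replicate 1. Ino80c, Nkx6-2, Agfg1 and Usp18 were also lowest on replicate 1, at 6.69, 6.54, 7.39 and 6.53, and Pop5 and Apoc1 were lowest on replicate 3, at 6.58 and 6.78. Besides genes fixed by equal ranks, the steadiest abundant genes included Igf2r with 10.18, 10.17 and 10.19, whose second probe had a mean of 6.55. Il1r1, the interleukin 1 receptor, was another, with 10.38, 10.34 and 10.34. Gm6548, with 11.94, 11.95 and 11.94, Nfib, Rasa3, Atf4, Kcne4 and Dazap1 were the others named by the spread.

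The detection limit was not sharp. Just inside it, 125 genes had a highest detection p of 0.00962 over the 3 arrays, among them Acot6 with signals of 6.44, 6.34 and 7.11 and Adgrl3 with 7.52, 5.73 and 5.70. Just outside it, 26 genes had 0.0107, among them Ankrd46 with 6.38, 5.62 and 5.95 and Bmp4 with 6.37, 8.29 and 6.46, where replicate 1 alone missed the threshold. Genes with more probes were detected more often, 20.2% of those with 1 probe, 33.2% of those with 2 and 49.6% of those with 3 or more.

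Beside the stromal and ribosomal genes, the 25 highest included several whose other probes gave little signal. Erich5, at rank 2 with 13.49, 13.76 and 13.76, had a second probe with a mean of 4.53. Terf2ip, a telomere protein at rank 6 with 13.02, 13.13 and 13.21, had 3 further probes with means of at most 5.95. Gemin2, Stim1 and Spc24 likewise had no other probe detected on all arrays, and Ctcfl, a germ cell relative of CTCF at rank 3, had 1 probe only. Rchy1 at rank 10 and Vps11 at rank 22 each had another probe detected on all arrays, but far dimmer, with highest means of 7.11 and 6.90. Rpl38 at rank 24 had a second probe with a mean of 6.02. Of the 59 genes with several probes among the 100 highest, 40 had another probe detected on all arrays and 10 had no other probe detected on any. Over all 3721 detected genes with several probes these counts were 1667 and 757. Genes with support from more than 1 probe at the top included Mfge8 and Fth1, the ferritin heavy chain at rank 11 with 12.52, 12.49 and 12.44. Others were Ubb-ps, a ubiquitin pseudogene at rank 19, Ahnak at rank 20, Dcn and Psap at rank 27. Srr, a serine racemase at rank 8 with 12.74, 12.52 and 13.12, had a second bright probe, but both were annotated to clone sequences. The Srr probe annotated to a RefSeq transcript was far dimmer, with 7.65, 7.48 and 7.68.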

How the data were processed

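Per the labels' protocols, total RNA of FRCs was amplified as whole transcriptome and biotin labelled. The deposited table held an unnormalized bead intensity and a detection p-value for each of 45281 probes per array, per the file headers. Processed intensities by the authors had a median of 113.1 on each PBS array and ranked probes as the raw values did. Per the deposited processing note and the submitters' processing notes, the authors used lumi with a variance-stabilizing transformation and quantile normalization. The deposited processed values are on a linear scale, which differs from that note, so how they were made is not known.

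Here the 3 PBS arrays were background corrected and quantile normalized together by limma's neqc (limma 3.58.1, R 4.3.3), with an offset of 16 before log2. The platform annotation gave 1 gene symbol to 34885 probes and several to 18, and 10378 probes have no name here. RefSeq's GRCm38.p6 gene table supplied current symbols by gene identifier for 34807 probes. A gene was taken by its detected probe with the highest mean. Summed signals are sums of the linear signal less the offset over each listed gene's best probe. Promoter CpG numbers are means over a gene's annotated starts. No test was run, as 1 group is described. With 3 arrays the number of animals limits the precision.

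The rule for named genes takes 310 genes, of which the text names part and gives the rest by their group's counts. They are the 25 highest, leaving out clone and locus identifiers, the 6 markers, the 3 highest of each of 51 lists and all members of lists of up to 12, the 10 steadiest abundant genes and the 10 most variable above the median, the 3 genes on each side of the detection threshold, and the first 3 of each list of other cells. Genes named outside this rule, such as Il7, Tnfsf13b, Pi16, Cr2, Fcer2a, Ltbr, Pdgfrb, Junb, Isg15, Glycam1 and those listed as undetected, were chosen after their values were seen. The members and lists were chosen with earlier results of these data known. The scripts were tested on simulated data.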

Additional observations from a re-analysis of the deposited data

How the results depend on the processing

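With 5716 genes detected on all 3 arrays, a detection p under 0.05 gave 6917, detection on at least 2 arrays gave 7825, and leaving out 1 replicate gave 5947 to 7309. Of the 100 highest genes 93 to 96 were shared without 1 replicate, 96 with the lowest of the 3 arrays in place of the mean, 76 with the mean of the detected probes, and 100 under a detection p of 0.05, with the 75th percentile as scale, without background correction, with neqc on all 9 arrays and with the authors' processed values. With the mean of the detected probes the median percentile was 98.3 for the FRC markers and 92.8 for the immediate early genes. For the ribosomal protein genes it was 97.3 at a detection p of 0.05, 96.9 with the lowest array and 96.6 to 97.3 without 1 replicate. Of 48 lists with a detected member, 16 moved by more than 10 percentile points under at least 1 of 10 alternatives, among them MHC class II genes, at 22.4 without replicate 3, Hox genes, at 42.9 without replicate 3, and interferon response genes, at 35.0 with the mean of the detected probes. Of 209 named genes 69 moved by more than 10 points. Vcam1 fell from 94.1 to 62.6 and Ptgs2 from 87.9 to 59.0, each the lowest of the 10 alternatives. Signals close to background limit the order of the dim genes. No paired analysis was possible because 1 group was described and no groups were compared.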

Other observations

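Many of the brightest beads carry no gene name in the annotation used here. Of the 100 highest probes detected on all 3 arrays 38 were unnamed, and of the 1000 highest 268 were. The second brightest probe of the arrays, with a log2 signal of 14.03 on each, was among them, so the order of named genes leaves out part of the abundant RNA.

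Some lineage genes were bright while the partners that usually accompany them were not detected. Prf1, the gene of perforin, had log2 signals of 10.76, 10.95 and 11.33 and ranked 162, but Gzmb, Nkg7 and Ncr1 were detected on no array, and its second probe had a mean of 5.02. Siglech, a plasmacytoid dendritic cell receptor, had 10.14, 9.87 and 10.42 on 1 probe, while its other probes had means of 4.77 and 4.69. Mitf, a regulator of pigment and other cells, had 9.48, 9.99 and 11.14 on 1 probe and a mean of 4.75 on the other, with Tyr and Dct undetected. Gp9, a platelet glycoprotein, had 9.19, 8.92 and 9.61, with Pf4 and Ppbp undetected. These genes were chosen after their values were seen.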
